A study of Homo sapiens with 6 samples.

Results

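The genes described here are 9 members of the receptor tyrosine kinase pathway that begins at the cell surface: the receptors EGFR, ERBB2, ERBB3, MET and AXL and the EGF-like growth factors AREG, EREG, HBEGF and TGFA. They were chosen by name, as the rows of the count table that carry these symbols, and all 9 were found among 30493 listed genes. All 9 passed the filter on low counts that left 17089 genes for testing. The series comprised 6 RNA-seq libraries, made from poly(A)-selected RNA. All came from A549, an established cell line of human lung adenocarcinoma. A group of 3 libraries came from A549 cells labelled as a plasmid control and a group of 3 from A549 cells labelled with knockdown of STAU1, whose columns carry the prefix si. STAU1 encodes a protein that binds double-stranded RNA and acts in the transport, translation and decay of mRNAs. The series asked how the A549 transcriptome differs after STAU1 is depleted. The sources used here do not give the knockdown reagent, its sequence or the time of harvest. Both groups are a single cell line, and no other treatment is labelled.

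EGFR, ERBB2 and ERBB3 are kinases of the ErbB family, which pair with each other at the membrane when a ligand binds and then signal through RAS and ERK and through PI3K and AKT. ERBB2 has no known ligand of its own, and ERBB3 has a weak kinase domain, binds neuregulins and is a strong recruiter of PI3K. AREG, EREG, HBEGF and TGFA are made as membrane-anchored precursors and are released by metalloproteases to act on EGFR, while MET is the receptor of HGF and AXL the receptor of GAS6. In lung adenocarcinoma EGFR, ERBB2 and MET are known as drivers and drug targets, and MET and AXL are known from resistance to EGFR inhibitors.

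The part of each ligand that binds the receptor is the EGF-like fold, held together by cysteines at fixed spacing. The coding stretch from the first to the last of these cysteine codons is shown for the 4 ligands because it is what makes them a family, in transcript sequence from GENCODE 29, with the 6 cysteine codons in capitals.
AREG: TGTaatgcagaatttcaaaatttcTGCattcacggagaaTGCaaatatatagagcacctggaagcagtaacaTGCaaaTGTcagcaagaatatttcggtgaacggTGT
EREG: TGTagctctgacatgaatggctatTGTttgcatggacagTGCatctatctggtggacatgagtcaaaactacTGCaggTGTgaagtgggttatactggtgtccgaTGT
HBEGF: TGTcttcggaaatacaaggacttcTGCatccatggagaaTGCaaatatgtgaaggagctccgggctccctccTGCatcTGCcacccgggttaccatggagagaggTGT
TGFA: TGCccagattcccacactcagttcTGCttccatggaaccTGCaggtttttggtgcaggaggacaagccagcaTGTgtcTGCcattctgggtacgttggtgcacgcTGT
Each stretch was 108 nt long, or 36 codons, and it occupied coding bases 436 to 543 of AREG, 202 to 309 of EREG, 322 to 429 of HBEGF and 157 to 264 of TGFA, counted from 1 at the start codon. The 6 cysteine codons were separated by 7, 4, 10, 1 and 8 codons in all 4 genes. The search that found these stretches required the spacings of 7, 1 and 8 and allowed a narrow range for the others. The shared spacing and length are thus in part set by the search. Over the 90 positions outside the cysteine codons, AREG and HBEGF, the most alike pair, shared 52.22% of bases and EREG and TGFA, the least alike, shared 40.0%.

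AREG and EREG lie side by side on chromosome 4, on the same strand and 56383 bp apart, and both were lower in the knockdown libraries. Their promoters are shown for that reason, from 250 bases before to 50 bases after the annotated start, from RefSeq (GRCh38.p14). AREG is the window chr4:74444886-74445185 and EREG is chr4:74364895-74365194, both on the plus strand. Capitals mark matches, on either strand, to the TATA box (searched as TATAAA), the CCAAT box (searched as CCAAT) and the GC box (searched as GGGCGG).
AREG: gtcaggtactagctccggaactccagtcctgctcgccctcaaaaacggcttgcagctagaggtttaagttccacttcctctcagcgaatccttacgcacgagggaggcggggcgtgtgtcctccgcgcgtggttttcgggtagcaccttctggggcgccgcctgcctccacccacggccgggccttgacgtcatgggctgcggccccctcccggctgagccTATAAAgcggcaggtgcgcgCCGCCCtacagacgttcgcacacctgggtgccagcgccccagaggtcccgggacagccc
EREG: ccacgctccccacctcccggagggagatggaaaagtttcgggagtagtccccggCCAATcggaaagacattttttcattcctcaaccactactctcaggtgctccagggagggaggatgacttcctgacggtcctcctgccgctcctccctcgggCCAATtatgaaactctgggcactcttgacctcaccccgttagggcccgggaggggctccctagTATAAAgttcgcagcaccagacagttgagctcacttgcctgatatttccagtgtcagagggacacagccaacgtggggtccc
TATAAA began 29 bases before the start in AREG and 32 bases before it in EREG, and 11.6% of 34796 RefSeq windows of this length held it. The AREG window also held GGGCGG, read from the other strand, which 44.9% of all windows held. The EREG window held CCAAT at 196 and 95 bases before the start, and 34.6% of all windows held that motif. Neither window held the AP-1 site TGANTCA, which 7.73% of all windows held. Neither held the ETS pair CCGGAAGT, which 4.13% of all windows held. The motifs were chosen after the sequences had been seen, and a match is a description of the letters only. RefSeq windows were found for 8 of the 9 genes, all but ERBB3.

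STAU1 itself (ENSG00000124214.21, chr20:49113339-49188367, minus strand, with positions of all genes on GRCh38 from GENCODE 29) stood at 120.5, 125 and 117 CPM (counts scaled to library depth with TMM factors) in control replicates 1 to 3. In knockdown replicates 1 to 3 it stood at 16.02, 15.7 and 14.6 CPM. The groups were far apart, and STAU1 was 7.83-fold lower (log2 fold change -2.97, SE 0.04, adjusted p = 1.9e-34 by edgeR's quasi-likelihood test, adjusted over all genes tested by Benjamini-Hochberg). The libraries held between 30354219 and 35431441 counts. Mitochondrially encoded genes took 17.3% to 17.9% of counts in controls and 15.8% to 16.1% in knockdown libraries, and the TMM factors were 0.971 to 0.977 and 1.02 to 1.03. Neither range overlapped between the groups, and their part in the calls that change with the scaling was not tested. All 10 markers of A549 and lung epithelium in a list made for this purpose were present in all 6 libraries. Their summed levels were 29747 to 30389 CPM in controls and 27982 to 28169 CPM in knockdown libraries. All 10 were called, 3 higher and 7 lower, where 44.1% of all genes tested were called. Of 13 markers of blood, endothelial, stromal and liver cells, 11 were listed, at 21.4 to 21.9 CPM in sum in controls and 30.5 to 31.8 CPM in knockdown libraries. Of the 6 of these that were tested, LUM, CD14 and CDH5 were called higher and 3 were not called. PTPRC and CD3E had no row, and at most 1 of the 11 was at 0 in any library. Their part in the results below was not tested. In bulk RNA, fewer cells of a type and less RNA per cell cannot be told apart.

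All 9 genes were called between the groups at an adjusted p under 0.05, with ERBB3, ERBB2 and HBEGF higher and EGFR, MET, AXL, AREG, EREG and TGFA lower in knockdown libraries. The background was wide: 44.1% of all genes tested were called, 22.2% as higher and 21.9% as lower. The 9 genes were chosen with earlier results of these data known, so their count is no test against this background. In none of the 9 did the CPM of the groups overlap, and 51.4% of all genes tested had groups that did not overlap. The median log2 fold change of the 9 genes was -0.10, against -0.00019 over all genes tested. The size of the changes sorted the genes into 3 kinds: ERBB3 alone changed by more than 1.5-fold, ERBB2, HBEGF, EREG and TGFA by 1.25-fold to 1.36-fold, and EGFR, MET, AXL and AREG by less than 1.2-fold. The place of HBEGF depended on control replicate 3, without which its log2 fold change was 0.20. Separate cultures are not labelled, so the spread behind each p-value is that between these 6 libraries and may be technical only.

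**Figure D1:**
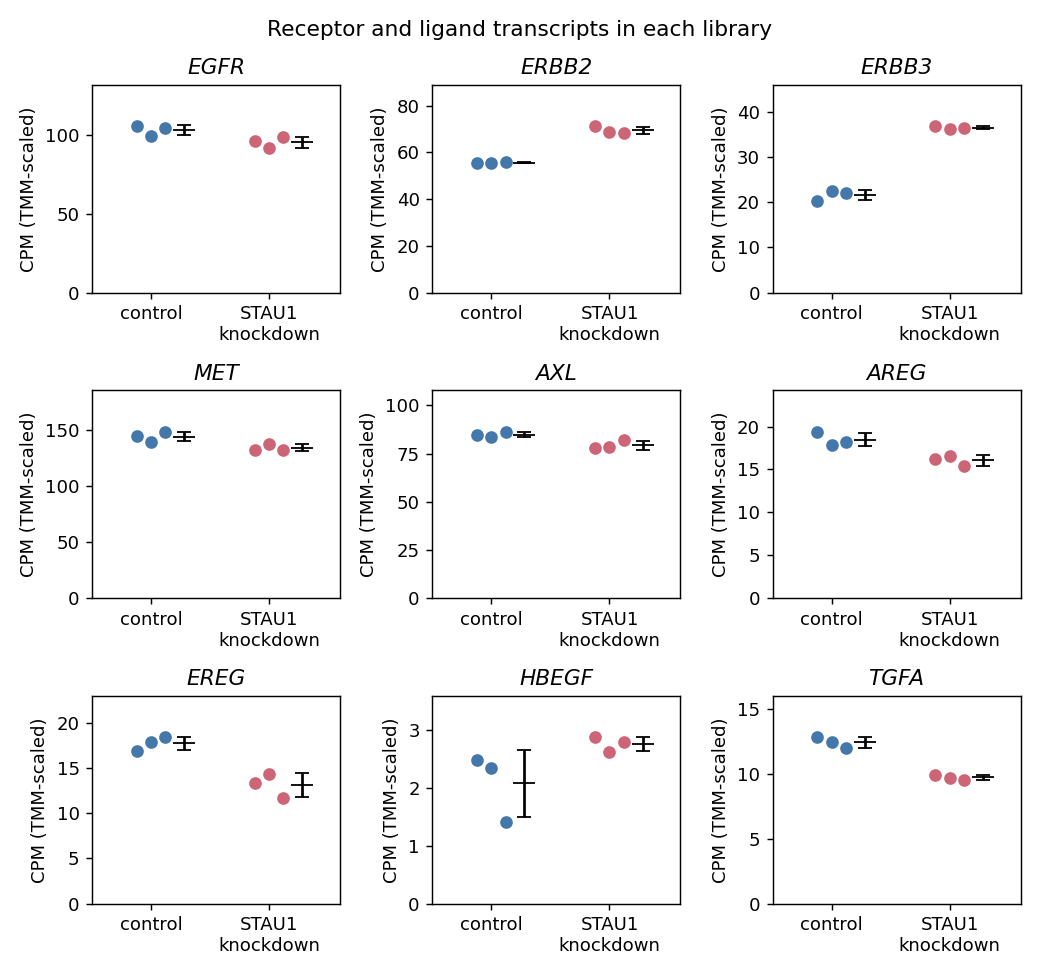
TMM-scaled CPM (vertical axis, from 0) of each of the 9 genes in the 3 control and 3 STAU1 knockdown libraries. Points are libraries in replicate order and bars are the mean ± SD; ERBB3 and ERBB2 sit higher in every knockdown library, EREG and TGFA lower, and HBEGF rests on few counts with 1 low control.

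ERBB3 (ENSG00000065361.17, chr12:56076799-56103505, plus strand) encodes the ErbB partner that binds neuregulins. It stood at 20.2, 22.5 and 22.0 CPM in control replicates 1 to 3 and at 36.8, 36.2 and 36.5 CPM in knockdown replicates 1 to 3. Every knockdown library lay above every control, with a gap between the groups larger than the range within either. The mean rose from 21.6 ± 1.19 to 36.5 ± 0.284 CPM (SD, n = 3 each), 1.69-fold (log2 fold change 0.76, SE 0.05, adjusted p = 3.1e-15 by edgeR's quasi-likelihood test). Among all genes tested, 4.25% changed by at least as much in either direction, and ERBB3 ranked 409 among the higher calls by fold change. The gene overlaps RP11-603J24.9, a transcript on the same strand, which was lower in knockdown libraries, at 43.3 and 37.4 CPM in the group means (log2 fold change -0.21, SE 0.04). The sources used here do not say how reads in the shared stretch were split, so the level of ERBB3 is uncertain by that share.

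ERBB2 (ENSG00000141736.14, chr17:39687914-39730426, plus strand) encodes the preferred partner of the other ErbB receptors. Control replicates 1 to 3 held 55.6, 55.5 and 55.7 CPM, and knockdown replicates 1 to 3 held 71.1, 68.7 and 68.4 CPM. The controls were nearly identical and all 3 knockdown libraries lay above them. ERBB2 rose 1.25-fold, from 55.6 ± 0.135 to 69.4 ± 1.47 CPM (SD, n = 3 each; log2 fold change 0.32, SE 0.03, adjusted p = 7.2e-10 by edgeR's quasi-likelihood test). A change of that size or more was seen in 25.9% of all genes tested. Its annotated span overlaps MIEN1 and PGAP3 on the opposite strand, so reads of these genes and of ERBB2 may not have been separated where the counting ignored strand. MIEN1 was slightly lower (log2 fold change -0.11, SE 0.03, adjusted p = 0.013 by edgeR) and PGAP3 did not pass the test (log2 fold change -0.0021, SE 0.06).

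EGFR, MET and AXL were lower by small amounts whose call depended on how the libraries were scaled. EGFR (ENSG00000146648.20, chr7:55019021-55211628, plus strand) stood at 105, 99.4 and 104 CPM in control replicates 1 to 3 and at 95.7, 91.6 and 98.5 CPM in knockdown replicates 1 to 3. The groups did not overlap, but the lowest control and the highest knockdown library were less than 1 CPM apart. The log2 fold change was -0.11 (SE 0.03, adjusted p = 0.0033 by edgeR's quasi-likelihood test). With libraries scaled by their total count it was -0.03 (adjusted p = 0.38 by edgeR), and on the deposited FPKM values EGFR averaged 6.72 ± 0.234 in controls and 6.71 ± 0.362 in knockdown libraries (SD, n = 3 each). EGFR-AS1, the antisense transcript of EGFR, had 1 count in all 6 libraries together.

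MET (ENSG00000105976.16, chr7:116672390-116798386, plus strand), the HGF receptor, stood at 145, 139.7 and 148 CPM in controls and at 132, 138 and 133 CPM in knockdown libraries. AXL (ENSG00000167601.12, chr19:41219203-41261766, plus strand), the GAS6 receptor, stood at 84.8, 83.5 and 86.2 CPM in controls and at 77.7, 78.3 and 82.0 CPM in knockdown libraries. In both genes the groups came close to each other without overlapping. The log2 fold change was -0.10 (SE 0.03) in MET, with an adjusted p of 0.002, and -0.10 (SE 0.03) in AXL, with an adjusted p of 0.011, both by edgeR's quasi-likelihood test. Scaling by total count gave -0.03 in MET and -0.02 in AXL, neither of them called. On log2(FPKM + 0.1) the values turned to 0.0064 in MET and 0.013 in AXL, where the median gene had moved up by 0.11 relative to its value under TMM scaling. The call in AXL was also lost without control replicate 3 (adjusted p = 0.054 by edgeR) or without knockdown replicate 1 (adjusted p = 0.078 by edgeR).

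**Figure D2:**
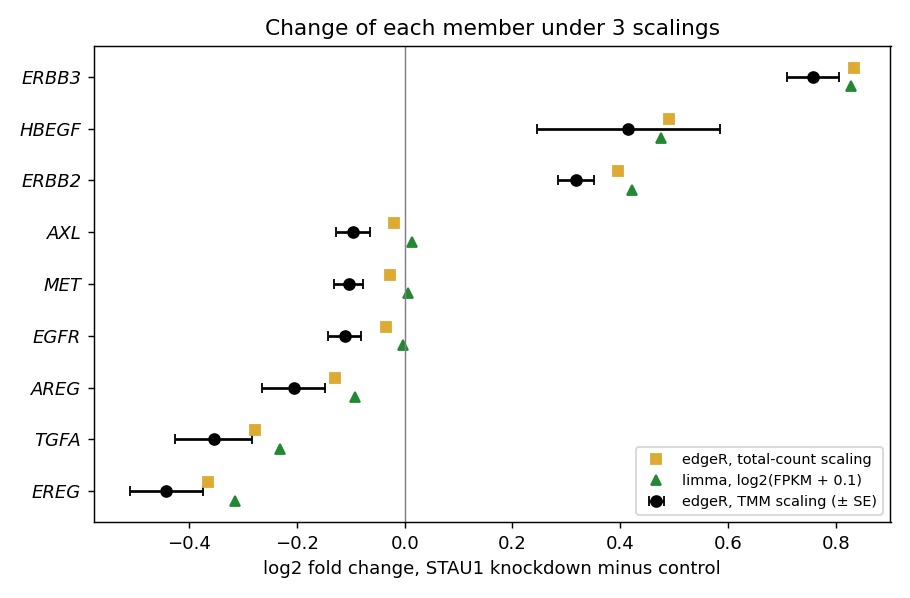
Log2 fold change (horizontal axis, knockdown minus control) of the 9 genes under TMM scaling with its SE (circles), total-count scaling (squares) and log2(FPKM + 0.1) values (triangles). The 5 outer genes, ERBB3, HBEGF, ERBB2, TGFA and EREG, keep their side of 0, and so do AREG and, at -0.0022 with log2(FPKM + 0.1), EGFR. EGFR, MET and AXL lie closest to 0 under all 3, and MET and AXL cross it with log2(FPKM + 0.1).

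EREG and TGFA were the ligands that fell most. EREG (ENSG00000124882.4, chr4:74365143-74388751, plus strand), epiregulin, binds EGFR and ERBB4. It stood at 16.95, 17.9 and 18.4 CPM in control replicates 1 to 3 and at 13.4, 14.3 and 11.7 CPM in knockdown replicates 1 to 3. All knockdown libraries lay below all controls, and replicate 3 was the lowest. EREG fell 1.36-fold, from 17.8 ± 0.738 to 13.1 ± 1.32 CPM (SD, n = 3 each; log2 fold change -0.44, SE 0.07, adjusted p = 1.4e-06 by edgeR's quasi-likelihood test).

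TGFA (ENSG00000163235.16, chr2:70447280-70554193, minus strand), transforming growth factor alpha, stood at 12.8, 12.5 and 11.96 CPM in controls and at 9.91, 9.68 and 9.55 CPM in knockdown libraries. The 3 knockdown libraries were within 0.5 CPM of each other, all below the controls. The fall was 1.28-fold (log2 fold change -0.35, SE 0.07, adjusted p = 9.4e-05 by edgeR's quasi-likelihood test). EREG and TGFA were called lower in each of the 18 alternatives run, log2(FPKM + 1) and each library left out included.

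AREG (ENSG00000109321.11, chr4:74445134-74455009, plus strand), amphiregulin, is a low-affinity ligand of EGFR. It stood at 19.4, 17.9 and 18.2 CPM in controls and at 16.2, 16.6 and 15.4 CPM in knockdown libraries. The groups did not overlap and differed by less than in EREG. The log2 fold change was -0.21 (SE 0.06, adjusted p = 0.0044 by edgeR's quasi-likelihood test). With total-count scaling it was -0.13 and was not called (adjusted p = 0.074 by edgeR). On log2(FPKM + 0.1) it was -0.09 and was not called (adjusted p = 0.096 by limma).

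HBEGF (ENSG00000113070.8, chr5:140332843-140346631, minus strand), heparin-binding EGF-like growth factor, had the fewest reads of the 9 genes. Its counts were 77, 72 and 45 in controls and 90, 84 and 101 in knockdown libraries, or 2.48, 2.35 and 1.41 CPM against 2.88, 2.63 and 2.80 CPM. The groups did not overlap, but control replicate 3 lay far below the other controls. The log2 fold change was 0.41 (SE 0.17, adjusted p = 0.046 by edgeR's quasi-likelihood test), just inside the threshold. Without control replicate 3 it was 0.20 (adjusted p = 0.38 by edgeR), and DESeq2 gave an adjusted p of 0.17. The adjusted p was also above the threshold without knockdown replicate 1, 2 or 3 (0.097, 0.055 and 0.072 by edgeR), with log2 fold changes of 0.39, 0.45 and 0.41. The call of HBEGF thus did not hold without any of these 4 libraries. On log2(FPKM + 1) its log2 fold change was 0.21, on a scale that understates changes of low genes. HBEGF was called in that fit (adjusted p = 0.042 by limma), but not in the same fit without a filter on low values (adjusted p = 0.13 by limma).

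Ratios between genes within a library do not depend on how libraries are scaled, but on FPKM values they depend on the gene lengths used. On FPKM values, ERBB3 stood at 0.205, 0.242 and 0.225 of the EGFR level in controls and at 0.410, 0.422 and 0.395 in knockdown libraries. ERBB2 stood at 0.640, 0.676 and 0.648 of the EGFR level in controls and at 0.900, 0.909 and 0.841 in knockdown libraries. Both partners were thus higher relative to EGFR in every knockdown library. Per kilobase of the longest protein-coding transcript, ERBB2 stood at 11.6 CPM in controls, ERBB3 at 3.65 and EGFR at 10.5. On that length ERBB2 was above EGFR in controls. On the log2 CPM scale the ERBB3 to EGFR ratio moved by 0.87 and the ERBB2 to EGFR ratio by 0.43 (exact two-sided permutation p = 0.1 each, the smallest that 3 against 3 allows, and 0.133 after Benjamini-Hochberg adjustment over the 8 ratios computed). The ERBB3 to ERBB2 ratio moved by 0.44 with the same exact p of 0.1. The log2 ratio of MET to EGFR differed by 0.0089 between the groups (exact permutation p = 0.9) and that of AXL to EGFR by 0.015 (exact permutation p = 0.7), both less than the SD between libraries.

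Relative to AREG, the most abundant of the 4 ligands per length, EREG and TGFA were lower and HBEGF was higher in knockdown libraries. The log2 ratios differed by -0.24 for EREG, -0.15 for TGFA and 0.66 for HBEGF, each with an exact two-sided permutation p of 0.1. The groups did not overlap in any of these 3 ratios. The HBEGF difference was 0.41 without control replicate 3.

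FPKM is a level per length and lets the 9 genes be ordered. In controls the order was MET at 16.3 ± 0.572 FPKM, AXL at 13.5 ± 0.280, AREG at 9.19 ± 0.397, EGFR at 6.72 ± 0.234, ERBB2 at 4.40 ± 0.0351, EREG at 2.54 ± 0.111, TGFA at 2.06 ± 0.060, ERBB3 at 1.50 ± 0.0814 and HBEGF at 0.57 ± 0.157 (SD, n = 3). No neighbours in this order overlapped in their range over the 3 libraries. In knockdown libraries ERBB3, at 2.74 ± 0.0586 FPKM, stood above EREG at 2.02 ± 0.170 and TGFA at 1.74 ± 0.0173, and the other 6 genes kept their places. Again no neighbours overlapped.

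**Figure D3:**
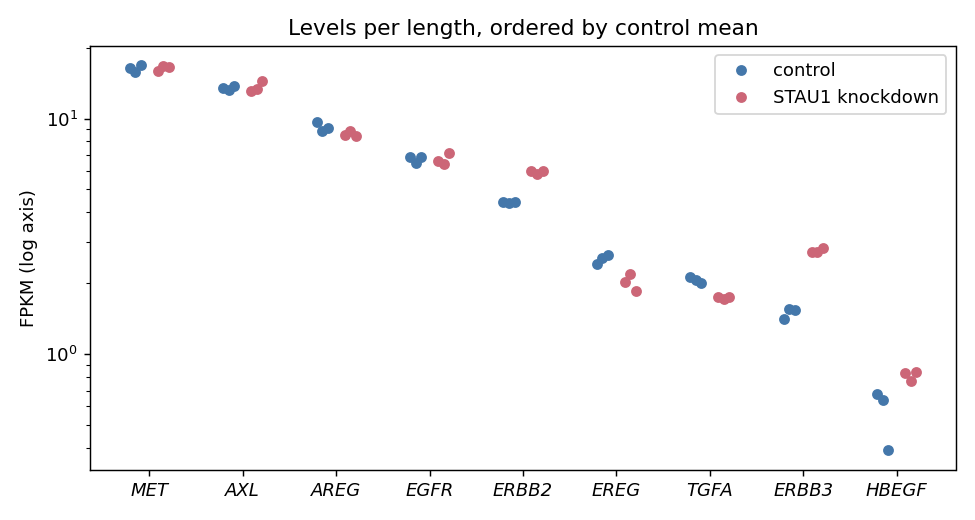
FPKM on a log axis for the 9 genes, ordered by their control mean, with 1 point per library. ERBB3 moves from below EREG and TGFA in controls to above them in knockdown libraries, and HBEGF is the lowest in both groups.

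The gene length behind the deposited FPKM affects this order. The length implied by counts and FPKM was 12303 nt for ERBB2 and 13971 nt for ERBB3. It takes the count total as depth, which need not be the depth behind FPKM. All annotated exons in GENCODE 29 cover 10321 nt in ERBB2 and 9039 nt in ERBB3. The implied length was 1.19 times this in ERBB2 and 1.55 times in ERBB3. In every other member that ratio lay between 1.18 and 1.22. The longest protein-coding transcript has 4792 nt in ERBB2 and 5919 nt in ERBB3. Per kilobase of the longest protein-coding transcript, an alternative added after the data were seen, ERBB2 stood at 11.6 CPM per kilobase in controls, above EGFR at 10.5. In knockdown libraries it stood at 14.5, above AREG at 12.9. ERBB3, at 3.65 CPM per kilobase in controls and 6.17 in knockdown libraries, passed EREG, at 3.85 and 2.84. It stood above TGFA, at 2.88 and 2.25, in both groups on this scale. MET and AXL led and HBEGF was last on either scale.

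Summed over the 5 receptors, FPKM was 42.53, 41.28 and 43.42 in controls and 44.32, 44.93 and 46.86 in knockdown libraries. ERBB2 and ERBB3 together made up 13.7%, 14.3% and 13.7% of that sum in controls and 19.6%, 19.0% and 18.8% in knockdown libraries. The 4 ligands summed to 14.85, 14.11 and 14.11 FPKM in controls and to 13.15, 13.51 and 12.89 FPKM in knockdown libraries. In these sums a larger part of the receptor transcripts was ERBB2 and ERBB3 after knockdown, and the ligand sum was lower in each knockdown library than in each control. The sums depend on the scaling of FPKM between libraries, and the shares depend on the gene lengths behind FPKM. Per kilobase of the longest protein-coding transcript, ERBB2 and ERBB3 made up 23.3% of the receptor level in controls and 30.7% in knockdown libraries.

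Of the other receptors of these families 3 were tested, and MST1R was the highest of them, at 16.3 CPM and 2.53 FPKM in the control means. TYRO3, a relative of AXL, rose (log2 fold change 0.34, SE 0.08), from 8.45 ± 0.577 to 10.7 ± 0.647 CPM (SD, n = 3 each), while MST1R, a relative of MET, fell (-0.25, SE 0.06) and MERTK, another relative of AXL, fell (-0.61, SE 0.21). ERBB4 had 10 counts in each group in sum and was not tested. All 3 tested receptors were thus called under TMM scaling, 1 higher and 2 lower, where 44.1% of all genes tested were called. In the fit of log2(FPKM + 1) MST1R was not called (adjusted p = 0.12 by limma). MERTK was not called with DESeq2 (adjusted p = 0.092), without control replicate 1 (0.09 by edgeR) or without knockdown replicate 2 (0.061 by edgeR).

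Of the 11 other ligands, 9 were tested, of which 2 were called higher and 7 were not called. This was 22.2% called, against 44.1% of all genes. HGF, the ligand of MET, stood at 4.48, 4.48 and 4.62 CPM in controls and at 9.27, 8.80 and 7.47 CPM in knockdown libraries. Every knockdown library held clearly more HGF transcript than any control, 1.87-fold in the mean (log2 fold change 0.90, SE 0.10, adjusted p = 3.1e-09 by edgeR's quasi-likelihood test). PROS1, protein S, a ligand of TYRO3 and MERTK, rose from 63.4 ± 2.29 to 87.0 ± 2.05 CPM (SD, n = 3 each; log2 fold change 0.46, SE 0.03). GAS6, the ligand of AXL, was at 5.33 and 6.26 CPM in the group means, without overlap, and missed the threshold (log2 fold change 0.23, SE 0.10, adjusted p = 0.055 by edgeR). With total-count scaling GAS6 was called higher (adjusted p = 0.0095 by edgeR). NRG1, a ligand of ERBB3, was at 78.1 ± 4.64 and 75.1 ± 1.48 CPM (SD, n = 3 each) and did not pass the test, but without control replicate 2 it was called lower (log2 fold change -0.10, adjusted p = 0.022 by edgeR). The log2 fold changes of the other 5 not called were -0.19 for EGF, 0.13 for BTC, 0.28 for NRG2, 0.03 for NRG4 and 0.00075 for MST1. EPGN held 4 counts in controls and 2 in knockdown libraries and was not tested, and NRG3 had no row.

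Among 9 genes of ligand shedding, 4 were higher, 2 were lower and 3 were not called, or 66.7% called against 44.1% of all genes. The count of higher genes was 2 in DESeq2 and 2 without knockdown replicate 2. ADAM17, the main sheddase of AREG, EREG, HBEGF and TGFA, fell from 75.7 ± 1.77 to 63.1 ± 0.237 CPM (SD, n = 3 each; log2 fold change -0.26, SE 0.03). FRMD8, which stabilises the iRhom cofactors of ADAM17, fell (log2 fold change -0.54, SE 0.05), and ADAM12 rose (0.86, SE 0.08). These 3 had the smallest adjusted p of the list, between 1.6e-11 and 2e-08 by edgeR's quasi-likelihood test.

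Downstream of the receptors both directions occurred in each list under TMM scaling, beside 22.2% of all genes called higher and 21.9% called lower. Of 16 adaptors and RAS genes, 8 were higher and 4 lower, led by GRB7 (log2 fold change 0.47, SE 0.06), an adaptor of ErbB receptors, SHC1 (-0.21, SE 0.03), which links receptors to GRB2, and NRAS (0.20, SE 0.03). Of 7 RAF, MEK and ERK kinases, 2 were higher and 3 lower: MAP2K1 (-0.27, SE 0.03) and MAP2K2 (-0.17, SE 0.03), the MEK kinases, fell and BRAF (0.31, SE 0.06) rose. In that list 1 gene was higher without control replicate 3, without knockdown replicate 3 or with DESeq2. Of 12 tested genes of the PI3K and AKT arm, 4 were higher and 2 lower, with rises in the kinase AKT1 (0.28, SE 0.03) and the PI3K regulatory subunit PIK3R1 (0.52, SE 0.06). Of 21 tested receptor inhibitors and turnover genes, 7 were higher and 3 lower, with rises in PTPRJ (0.59, SE 0.03), a phosphatase of EGFR and MET, and CBLB (0.79, SE 0.06), a ubiquitin ligase of receptor tyrosine kinases, and a fall in PTPN12 (-0.14, SE 0.03), a cytoplasmic tyrosine phosphatase. The medians of these 4 lists lay between -0.05 and 0.08. The falls depended on the scaling: with total-count scaling 1 adaptor or RAS gene, 2 RAF, MEK and ERK kinases, 1 gene of the PI3K and AKT arm and 0 receptor inhibitors and turnover genes were called lower. Called higher were then 11, 2, 7 and 13, beside 5455 higher and 2398 lower of all 17089 genes under that scaling. In the fit of log2(FPKM + 1) the lower counts were 0, 1, 0 and 0, and SHC1, MAP2K2 and PTPN12 were not called (adjusted p = 0.072, 0.21 and 0.49 by limma). Over all 13651 genes in that fit, 4910 were called higher and 1527 lower.

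Genes known as transcriptional output of ERK were lower more than higher under TMM scaling: 11 of 20 fell and 2 rose, while 7 were not called. Their median log2 fold change was -0.26. With total-count scaling 9 were lower and 5 higher, and with log2(FPKM + 1) 7 were lower and 5 higher. Over all genes, total-count scaling called 2398 lower and 5455 higher of 17089. The log2(FPKM + 1) fit called 1527 lower and 4910 higher of 13651. The count of higher genes was 1 without control replicate 1, 1 without control replicate 3 and 0 without knockdown replicate 3. CCND1, cyclin D1, stood at 284, 284 and 301 CPM in controls and at 200.1, 212 and 199 CPM in knockdown libraries. The groups were well apart, a fall of 1.42-fold (log2 fold change -0.51, SE 0.03, adjusted p = 3.8e-16 by edgeR's quasi-likelihood test). EPHA2, an ephrin receptor, fell (log2 fold change -0.54, SE 0.04) and IER3, an immediate early gene, fell (-0.35, SE 0.04). The background of 21.9% called lower over all genes under TMM scaling stands beside the count of 11, which carries no test of the list. The list was chosen with earlier results of these data known.

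**Figure D4:**
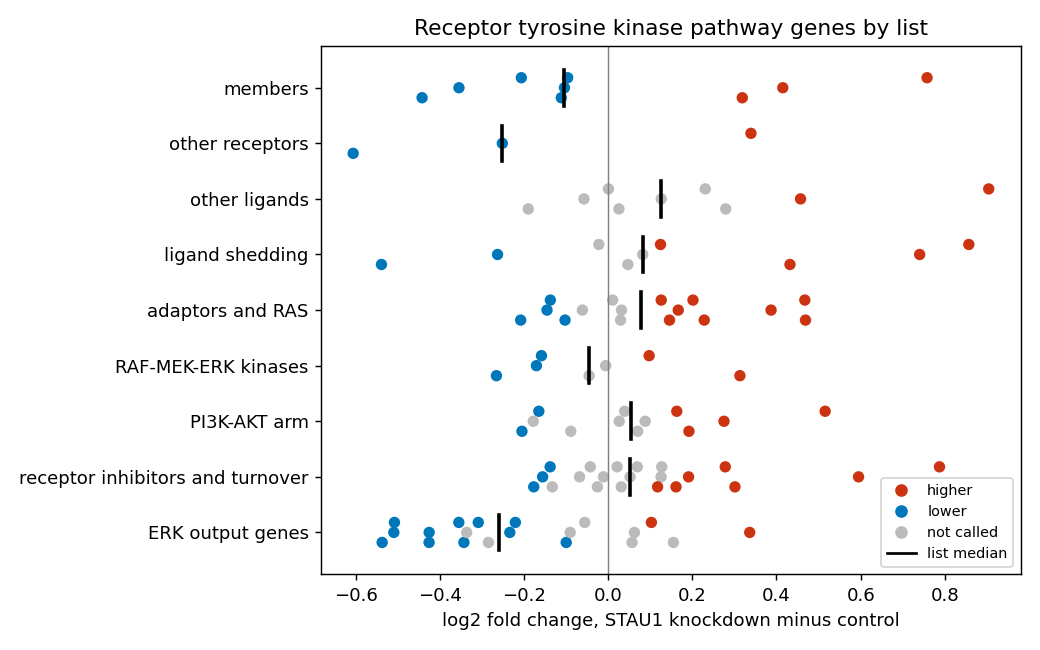
Log2 fold change (horizontal axis, knockdown minus control) of each tested gene of the 9 pathway lists, by list. Red points were called higher, blue points lower and grey points not called, and black bars are list medians; the ERK output genes have their median at -0.26 and the 9 genes described here at -0.10.

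Genes with a profile most like that of ERBB3 were sought by the root mean square difference of mean-centred log2 CPM over the 6 libraries, among 10099 genes whose mean log2 CPM was 3 or more. They were HSDL2 (difference 0.0273), VEGFC (0.0304) and PDGFC (0.0345), with log2 fold changes of 0.78, 0.79 and 0.73. For EGFR they were PSMD9 (0.0108), VBP1 (0.0126) and SLC25A15 (0.0127), with log2 fold changes of -0.12, -0.11 and -0.11. These are neighbours in pattern over libraries of a single comparison.

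Genes near the 9 on the chromosome changed in both directions. Within 100 kb of a member, 37 pairings with a tested gene were found, 10 of them higher, 11 lower and 16 not called, or 56.8% called against 44.1% of all genes, with AREG and EREG counted as each other's neighbour. GRB7, 7501 bp from ERBB2 on the same strand and known to be co-amplified with it, rose from 16.3 to 22.6 CPM in the group means, while STARD3, on its other side, did not pass the test (log2 fold change -0.08, SE 0.04). PA2G4, 814 bp from ERBB3 and known for a product that binds ERBB3, fell from 212 to 177 CPM (log2 fold change -0.26, SE 0.02). ADD2, 53425 bp from TGFA, rose (log2 fold change 0.41, SE 0.04) where TGFA fell. HNRNPUL1, 730 bp from AXL, did not pass the test (-0.04, SE 0.02). The distance was chosen after the data had been seen.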

How the data were processed

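Poly(A) RNA of 6 A549 libraries was measured by RNA-seq, 3 controls and 3 with STAU1 knockdown, assigned by column names that equal the sample titles. The authors deposited whole-number read counts per gene and FPKM values rounded to 2 decimals. Per the labels' protocols, libraries were directional and read in pairs of 150 nt. The submitters' processing notes name HISAT2, DESeq2 and build GRCh38 without roles or versions. The sources used here give no counting tool, annotation or strand setting, so reads of overlapping genes may not be separated.

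Counts were filtered with filterByExpr (minimum count 10), scaled by TMM and tested in edgeR 4.0.16 (quasi-likelihood, robust dispersion, R 4.3.3), with Benjamini-Hochberg adjustment over 17089 genes and calls at an adjusted p under 0.05. CPM are TMM-scaled, errors of CPM and FPKM are SDs, and log2 fold changes are edgeR's, knockdown minus control, with SE. Library totals were 30354219 to 35431441 counts, and counting error limits HBEGF most. The fit was tested on simulated counts. Alternatives were other scalings and filters, DESeq2 1.42.0, limma-voom, limma-trend (limma 3.58.1) on log2(FPKM + 1) and log2(FPKM + 0.1) with at least 0.5 FPKM in 3 libraries, a replicate block and each library left out.

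The genes and all lists were chosen with earlier results of these data known. Named genes were the 9 members, STAU1, the tested other receptors and ligands, the 3 genes with the smallest adjusted p in each other list (1 of these is not reported here), and the 3 genes most like EGFR and ERBB3 in pattern. Neighbours, overlapping genes and marker genes were named after their values were seen. Positions and transcripts are from GENCODE 29, in which 29556 of 30493 identifiers matched (96.93%), and promoters from RefSeq.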

Additional observations from a re-analysis of the deposited data

How the results depend on the processing

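ERBB2, ERBB3, EREG and TGFA kept their direction and call in all 18 alternatives, and STAU1 did too. The number of the 9 genes called lower was 6, but 2 with total-count scaling and 2 in each of the 3 FPKM fits; with libraries left out it was 5 to 6, and the number called higher 2 to 3. In the other pathway lists 30 genes were higher and 27 lower, beside 22.2% and 21.9% of all genes tested. By list, between 22.2% (other ligands) and 100% (other receptors) of the tested genes were called, against 44.1% of all genes. Total-count scaling gave 48 higher and 17 lower, beside 5455 and 2398 of all 17089 genes. The FPKM fits gave 10, 10 and 9 lower. Over all genes 3741 were lower, against 2398 with total-count scaling and 1527, 1511 and 1104 with log2(FPKM + 1), log2(FPKM + 0.1) and log2(FPKM + 1) without a filter. Higher genes made up 50.3% of calls with TMM, 69.5% with total-count scaling and 76.3% to 78.5% with FPKM. These scalings moved the median gene by 0.08 (total count), 0.10 (log2(FPKM + 1)) and 0.11 (log2(FPKM + 0.1)).

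Direction turned in MET (0.00607, 0.00642 and 0.00607) and AXL (0.0120, 0.0127 and 0.0120) under the 3 FPKM fits, and in genes not called under TMM scaling of all 6 libraries: NRG1 (0.0195 with total-count scaling, 0.0414, 0.0537 and 0.0414 with FPKM), MST1 (-0.000527 with RLE and -0.00111 with upper-quartile scaling) and, with libraries left out, MST1 (-0.0756 to 0.0821) and NRG4 (-0.113 to 0.137). With libraries left out the log2 ratio to EGFR ran from -0.0379 to 0.0426 in MET and from -0.00451 to 0.0336 in AXL. HBEGF lost its call with DESeq2, log2(FPKM + 0.1), log2(FPKM + 1) without a filter and 4 of the 6 libraries left out. The cause of these changes was not tested.

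With the replicate number as a block, 3811 genes were higher and 3831 lower, and no call of the 9 genes changed. Same-numbered libraries correlated at 0.068, 0.037 and 0.15 in their deviations, and differently numbered ones at -0.11 to 0.046. These values do not settle whether the numbers pair the samples, and the main fit used no pairing.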
